A study of Homo sapiens with 18 samples.

Results

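EGR1, JUN, FOSL1 and MYC encode transcription factors that cells switch on soon after a growth or stress signal. They were followed through 18 Affymetrix Human Gene 2.0 ST arrays as 4 of the 14884 genes that have a symbol among the array's features. Each gene was read by the feature with its symbol that had the highest mean over the 18 arrays, and all 4 features passed the filter on low values. The genes were chosen because earlier results on these arrays had placed them among the leading immediate early genes after antisense treatment. Their differences between treated and control arrays are therefore given as a description, without a test.

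Immediate early genes hold ready-made promoters that respond to kinase signalling without new protein synthesis, and their RNAs are short-lived. JUN and FOSL1 (also called FRA-1) proteins pair through leucine zippers into the AP-1 factor, which binds genes for proteases, cytokines and cell motility. EGR1 is a zinc finger factor that binds GC-rich sites and is held in check by the NAB corepressors. MYC pairs with MAX at E-box sequences and is known for driving ribosome production and cell growth. FOSL1 is known for its high level in mesenchymal-like breast cancer cells.

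The 18 arrays form 6 groups of 3. SKBR3 is a HER2-positive breast cancer line, and its cells received a control antisense oligonucleotide (ASO) or 1 directed at the lncRNA (long non-coding RNA) LINC01269. The triple-negative lines MDA-MB-468 and MDA-MB-231 received a control ASO or 1 directed at the lncRNA AL078604.2. All 6 groups were given GapmeRs, which direct cleavage of the RNA they pair with, at 15 nM for 48 h together with the transfection agent TransIT-BrCa, so the controls share the transfection. Each target was tested with 1 ASO and each line was sampled after 48 h only, and neither target RNA was measured by a named feature. The labels do not say whether the 3 arrays of a group came from separate cultures, so p-values measure the spread between arrays only. These are bulk RNA values, in which fewer cells expressing a gene and less RNA per cell cannot be told apart.

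The deposited values are read as log2 expression. Array medians were 4.56 to 4.63 in the SKBR3 arrays, 5.41 to 5.43 in the MDA-MB-231 arrays and 5.21 to 5.24 in the MDA-MB-468 arrays, so levels are compared between lines only on a common scale. Markers did not separate the labelled lines well. The 7 named epithelial markers had median percentiles of 96.6, 97.2 and 97.3 among all features in the control arrays of SKBR3, MDA-MB-231 and MDA-MB-468. EPCAM, an epithelial gene, stood at 99.2 in MDA-MB-231, a line known for mesenchymal features. The 10 luminal and HER2 markers had medians of 86.5 in SKBR3, 85.5 in MDA-MB-231 and 85.6 in MDA-MB-468. In the same order, the 7 of 8 mesenchymal markers with a named feature had 68.1, 70.0 and 60.1. The 3 of 8 basal markers had 71.9, 89.1 and 85.8. Of these, KRT5 and KRT14 were lowest in SKBR3, while EGFR was highest there (99.0, against 98.2 and 98.7). The leukocyte markers with a named feature (2 of 6) had medians of 28.6 to 34.0 percent, and the 4 of 7 fibroblast and endothelial markers 27.5 to 32.5 percent. Of the 33 marker genes with a named feature, 0 were called in any ASO comparison. Over all tested features the share called was 0.0% in SKBR3, 0.171% in MDA-MB-231 and 0.0067% in MDA-MB-468. The 33 also take in markers with low values, such as DCN, that failed the filter and could not be called. Lines are therefore named as labelled.

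The promoters of JUN and EGR1 are shown because they are the 2 of the 4 genes with an entry in the promoter table used here, and they hold different signal-responsive elements. FOSL1 and MYC have no entry in it. The sequences are from RefSeq (GRCh38.p14) and run 5′ to 3′ along the gene's strand over the 250 bases before the start site. Capitals mark matches to the motifs named below. JUN lies on the minus strand, and the window is chr1:58784048-58784297. EGR1 lies on the plus strand, and the window is chr5:138465229-138465478.
JUN: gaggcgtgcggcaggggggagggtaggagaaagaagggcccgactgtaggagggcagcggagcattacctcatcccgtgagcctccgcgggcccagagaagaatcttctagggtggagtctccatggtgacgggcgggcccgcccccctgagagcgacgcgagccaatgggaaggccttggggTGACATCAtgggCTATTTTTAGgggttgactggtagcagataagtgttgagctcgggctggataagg
EGR1: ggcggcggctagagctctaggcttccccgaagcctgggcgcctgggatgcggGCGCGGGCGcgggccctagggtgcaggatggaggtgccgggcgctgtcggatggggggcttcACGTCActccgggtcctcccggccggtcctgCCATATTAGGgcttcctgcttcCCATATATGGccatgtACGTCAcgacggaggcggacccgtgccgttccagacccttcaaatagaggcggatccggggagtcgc

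Motifs were searched on both strands of these windows and of the 35116 promoter windows of the same length in the table. The EGR1 window held 2 matches to the serum response element core (CArG box), which SRF binds, beginning 105 and 83 bases before the start site. Of all windows, 1.16% held that core. The EGR1 window also held 2 matches to ACGTCA, the shorter core of the cAMP response element (7.1% of windows), and 1 to the EGR site GCGNGGGCG (8.41%). The JUN window held the AP-1-like octamer TGACATCA (2.37% of windows), known as the site through which JUN acts on its own gene, beginning 67 bases before the start site. A MEF2 site (2.8%) began 55 bases before the start. Neither window held the full cAMP response element TGACGTCA, which contains the shorter core (1.65%), the AP-1 site TGANTCA (6.57%) or the E-box CACGTG (6.34%). A match is a description of the letters, not a measured binding site.

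EGR1 stood higher in all 3 treated arrays than in all 3 control arrays of each labelled line, and most clearly in MDA-MB-231. In MDA-MB-231 its control arrays read 6.43, 6.66 and 6.48 and its anti-AL078604.2 arrays 7.5, 7.42 and 7.14, all on the log2 scale of the deposited values. The gap between the lowest treated and the highest control array was 0.48. The difference of means was 0.83 ± 0.126 log2 (SE, n = 3 per group), a 1.78-fold higher value.

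In MDA-MB-468 the control arrays read 6.6, 6.74 and 6.87 for EGR1 and the treated arrays 7.26, 6.91 and 7.08. The groups were next to each other, with a gap of 0.04 and a difference of 0.35 ± 0.126. In SKBR3 the control arrays lay within a narrow band, at 6.49, 6.43 and 6.47. The anti-LINC01269 arrays read 6.92, 6.5 and 6.89, so replicate 2 lay 0.02 above the highest control and the other two stood apart from it. The difference in SKBR3 was 0.31 ± 0.126.

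A second feature with the EGR1 symbol (17000463) did not repeat the size of the MDA-MB-231 difference. Its values there were 5.67, 5.3 and 5.43 in the control arrays and 5.56, 5.88 and 5.7 in the treated arrays, and the groups overlapped. The differences of this feature were 0.25 ± 0.128 in MDA-MB-231, 0.14 ± 0.128 in MDA-MB-468 and 0.31 ± 0.128 in SKBR3. Its groups overlapped in all 3 lines. The SKBR3 value equals that of the brighter feature (16989736), and the values in the other lines were lower.

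JUN, the AP-1 subunit that can pair with itself or with FOS proteins, had its largest difference in the same line. The MDA-MB-231 control arrays read 8.12, 8.24 and 8.11 and the treated arrays 8.83, 9.05 and 8.91. The groups were 0.59 apart, the widest gap found for any of the 4 genes, and the difference was 0.78 ± 0.117 log2 or 1.71-fold. Ranked by rise among the 29855 features tested in MDA-MB-231, the brighter EGR1 feature was at place 79 and JUN at place 96. The second EGR1 feature was at place 2150. The genes were chosen from these comparisons, so the places are a description.

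In MDA-MB-468 JUN read 8.73, 8.6 and 8.92 in the control arrays and 9.38, 9.07 and 8.83 in the treated arrays. Treated replicate 3 lay below the highest control, so the groups overlapped. The difference was 0.35 ± 0.117, and 0.20 without treated replicate 1. In SKBR3 the control arrays read 8.27, 8.23 and 8.02 and the treated arrays 8.41, 8.34 and 8.33, a difference of 0.19 ± 0.117. The SKBR3 groups were 0.06 apart, and without control replicate 3, the lowest array, the difference was 0.11.

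JUN-DT is a non-coding gene transcribed away from the JUN start site, and its feature was chosen for display after its values had been seen. It read 5.24, 4.95 and 5.15 in the MDA-MB-231 control arrays and 5.06, 5.27 and 5.28 in the treated arrays. These groups overlapped, and the difference was 0.09 ± 0.133 (limma adjusted p = 0.916). The difference was -0.14 ± 0.133 in MDA-MB-468 (adjusted p = 0.79) and 0.17 ± 0.133 in SKBR3 (adjusted p = 0.75).

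FOSL1, the partner of JUN in AP-1, had its largest difference in SKBR3, where it rested mainly on 1 array. The SKBR3 control arrays read 5.87, 5.49 and 5.67 and the anti-LINC01269 arrays 7.19, 5.89 and 6.08. Treated replicate 1 stood far above the rest, while replicate 2 lay 0.01 above the highest control. The difference was 0.71 ± 0.253 log2 over all arrays and 0.31 without treated replicate 1. The standard error of 0.253 is pooled over the arrays of all lines, and with the SKBR3 arrays only it was 0.321.

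In MDA-MB-231 FOSL1 read 7.3, 7.38 and 7.19 in the control arrays and 7.48, 7.75 and 7.75 in the treated arrays. The groups were 0.1 apart and the difference was 0.38 ± 0.253. That standard error is pooled over the arrays of all lines, and with the MDA-MB-231 arrays only it was 0.102. In MDA-MB-468 the control arrays lay close together at 5.84, 5.89 and 5.8, and the treated arrays spread over 6.61, 6.35 and 5.81. Treated replicate 3 fell among the controls. The difference there was 0.41 ± 0.253, with 0.24 when treated replicate 1 was left out and 0.64 when replicate 3 was left out. With the MDA-MB-468 arrays only, its standard error was 0.188.

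MYC had similar differences in SKBR3 and MDA-MB-231 and little in MDA-MB-468. The SKBR3 control arrays read 6.61, 6.52 and 6.55 and the treated arrays 7.43, 6.74 and 6.83. All treated arrays were above the controls, and replicate 1 was the highest by a wide margin, as for FOSL1. The difference was 0.44 ± 0.159 log2, and 0.22 without that array.

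In MDA-MB-231 MYC read 7.75, 7.75 and 7.92 in the control arrays and 8.06, 8.06 and 8.51 in the treated arrays. The groups were 0.14 apart, and the difference was 0.41 ± 0.159, or 0.26 without treated replicate 3, the highest array. In MDA-MB-468 the control arrays read 7.68, 7.74 and 7.8 and the treated arrays 8.03, 7.85 and 7.57, so treated values lay on both sides of the controls. The MDA-MB-468 difference was 0.077 ± 0.159. Its sign depended on 1 array, with -0.029 without treated replicate 1, 0.20 without treated replicate 3 and 0.047 without control replicate 1.

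**Figure D1:**
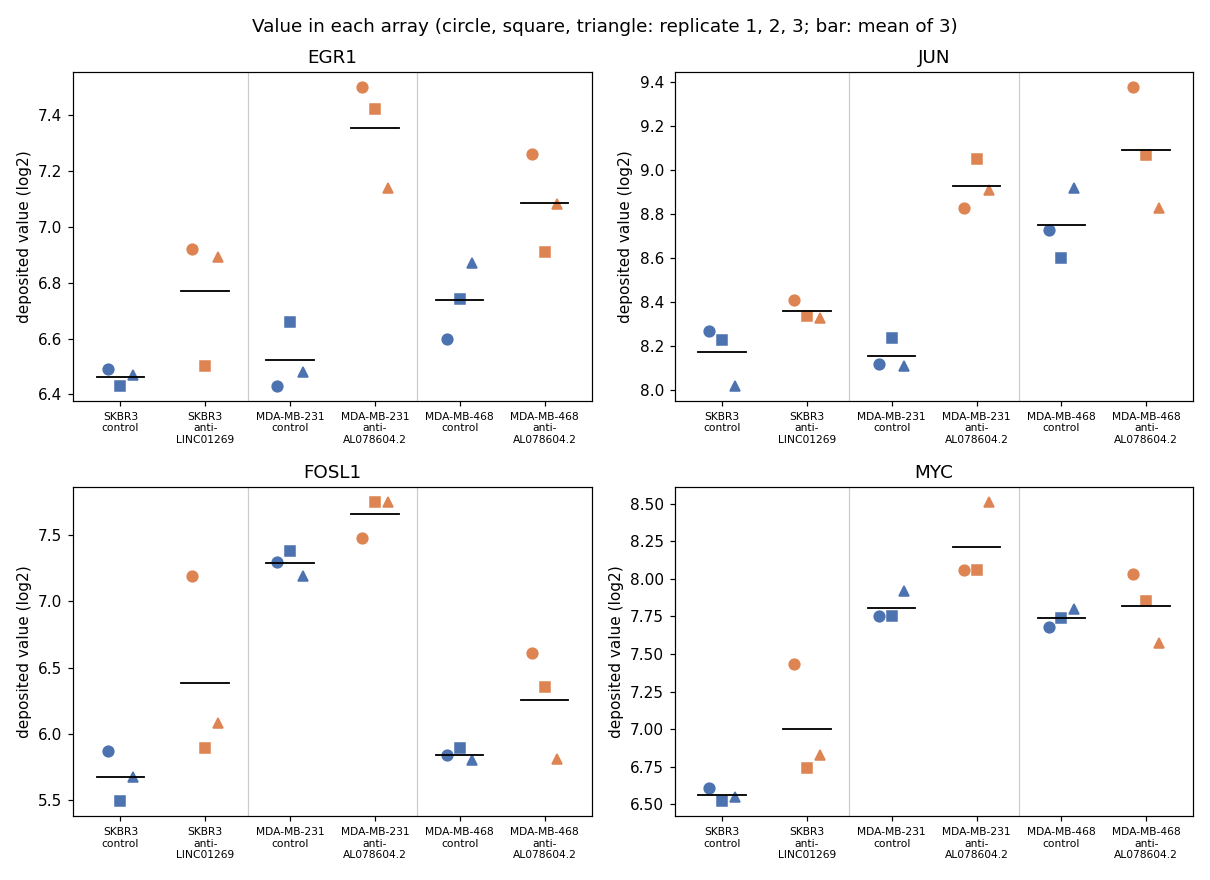
Deposited log2 value of EGR1, JUN, FOSL1 and MYC (vertical axes, 1 panel per gene) in each of the 18 arrays, with 3 control arrays (blue) and 3 ASO arrays (orange) per labelled line and a bar at each mean of 3. The EGR1 and JUN groups of MDA-MB-231 are 0.48 and 0.59 apart, while JUN, FOSL1 and MYC overlap in MDA-MB-468.

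All 4 genes had groups that did not overlap, with the treated arrays above, in SKBR3 and in MDA-MB-231, and 1 of the 4, EGR1, did so in MDA-MB-468. Of all 29855 features tested, 7.28% had all treated arrays above all controls in SKBR3, 9.28% in MDA-MB-231 and 8.41% in MDA-MB-468. The genes were chosen from these comparisons, so the counts are a description. The difference between the responses of MDA-MB-231 and MDA-MB-468 to the same ASO was 0.48 ± 0.178 log2 for EGR1, 0.43 ± 0.165 for JUN, 0.33 ± 0.225 for MYC and -0.038 ± 0.357 for FOSL1. No feature in the table was called by limma for such a difference (0 of 29855, or 0.0%), and 1243 had an unadjusted p under 0.05.

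**Figure D2:**
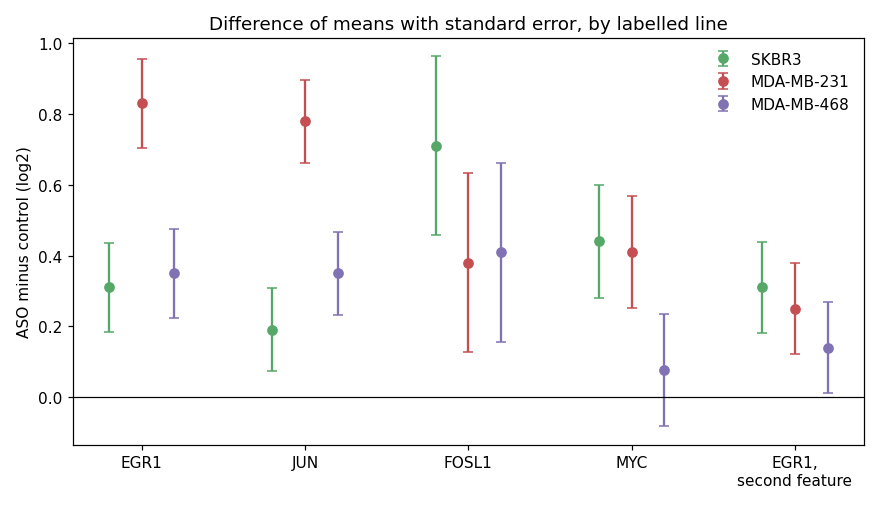
Difference of means, ASO minus control, in log2 (vertical axis) with its standard error from the fit for each gene and for the second EGR1 feature, coloured by labelled line (n = 3 arrays per group). EGR1 (0.83) and JUN (0.78) are highest in MDA-MB-231 and FOSL1 (0.71) in SKBR3, and the second EGR1 feature reads 0.25 in MDA-MB-231.

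The same treated array was the highest for all 4 genes in SKBR3 and in MDA-MB-468, but not in MDA-MB-231. In SKBR3 the treated replicate 1 was the highest of the 3 treated arrays for 4 of 4 genes, and it was the highest for 38.2% of all tested features. Its lead was small for EGR1 (6.92 against 6.89) and JUN (8.41 against 8.34). For the second EGR1 feature it was the lowest treated array in SKBR3 (4.93 against 5.28 and 5.19). In MDA-MB-468 treated replicate 1 was likewise the highest for 4 of 4 genes, and for 40.3% of tested features. In MDA-MB-231 the highest treated array was replicate 1 for EGR1, replicate 2 for JUN and replicate 3 for MYC. The part that an array-wide property has in these values was not tested.

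The genes also differed in how much they varied within groups. The standard deviation within groups was 0.35 log2 for FOSL1, 0.21 for MYC, 0.16 for EGR1 and 0.15 for JUN, against a median of 0.15 over all tested features. FOSL1 thus varied more than 93.6% of tested features, and JUN more than 50.3%. After each line's mean was subtracted, EGR1 and JUN had a Pearson correlation of 0.87 over the 18 arrays and FOSL1 and MYC of 0.871. The other pairs lay between 0.594 and 0.635. These arrays share lines and treatments, so the correlations are a description.

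**Figure D3:**
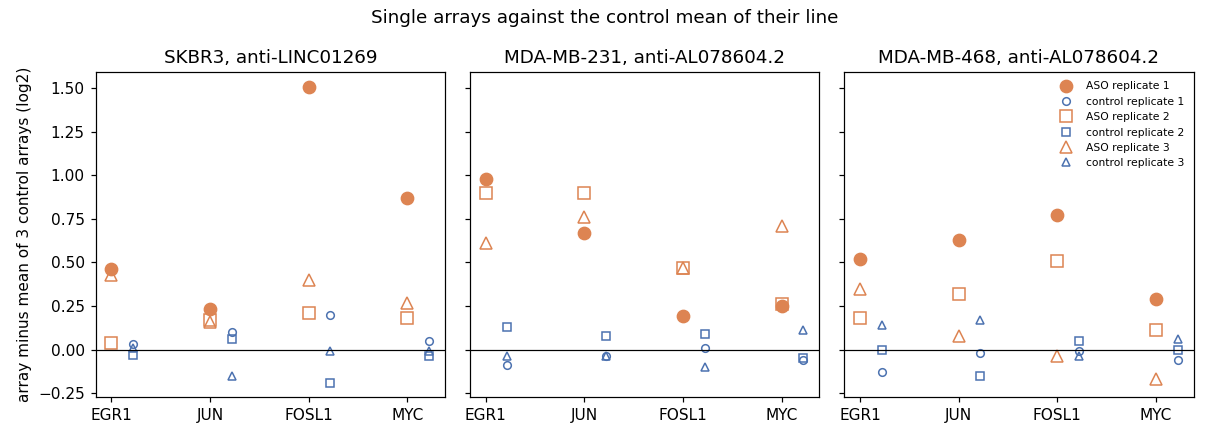
Each array minus the mean of the 3 control arrays of its line in log2 (vertical axis) for the 4 genes, with ASO arrays in orange (replicate 1 filled) and control arrays in smaller blue symbols, 1 panel per labelled line. Replicate 1 is the highest ASO array for 4 of 4 genes in SKBR3 and in MDA-MB-468, and the order of the arrays changes from gene to gene in MDA-MB-231.

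The pathway around the 4 genes was followed in 10 lists with 161 genes, of which 93 had a named feature and 85 were tested. limma called 0 of the 85 in SKBR3, 0 in MDA-MB-231 and 0 in MDA-MB-468, where 0.0%, 0.171% (0.0971% higher and 0.0737% lower) and 0.0067% of all tested features were called. The unadjusted p was under 0.05 for 10 list genes in SKBR3 (7 higher), 20 in MDA-MB-231 (19 higher) and 10 in MDA-MB-468 (6 higher). Over all tested features that share was 9.16%, 9.35% and 10.5% in the same order, so 10 of 85 in SKBR3 and in MDA-MB-468 lay close to it. The difference was above 0 for 62 of 85 list genes in SKBR3 (54.0% of all tested features), 61 in MDA-MB-231 (53.0%) and 55 in MDA-MB-468 (49.1%). Leaving out the treated replicate 1 gave 4 called list genes in MDA-MB-231, namely ATF3, JUND, KLF4 and ODC1, while calls over all features went from 51 to 532 (1.78%). Leaving out treated replicate 2 in SKBR3 gave 1, MRTFB, while calls over all features went from 0 to 231 (0.774%).

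The other AP-1 and ATF subunits had higher values in the treated MDA-MB-231 arrays than in the controls, with none passing. Of 10 tested genes, 0 passed, 9 were above 0 and 8 had all treated arrays above all controls, against 9.28% of all tested features. The median difference was 0.33 log2, and that of all tested features was 0.01. ATF3, a stress-induced partner of JUN, led the list. Its control arrays read 6.17, 6.21 and 6.24 and its treated arrays 6.62, 6.72 and 6.97, a difference of 0.57 ± 0.129 (limma adjusted p = 0.0966).

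FOSL2, a relative of FOSL1, read 7.82, 7.9 and 7.9 in the MDA-MB-231 controls and 8.2, 8.15 and 8.27 in the treated arrays, with 0.34 ± 0.0817 and adjusted p = 0.117. FOS, the founding partner of JUN, read 5.97, 6.32 and 6.05 against 6.46, 6.59 and 6.67, with 0.46 ± 0.117 and adjusted p = 0.139. In neither gene did the groups overlap. The remaining JUN relatives JUND (0.33, adjusted p = 0.186) and JUNB (0.35, adjusted p = 0.418) also had groups apart. The small MAF proteins MAFF and MAFG had 0.49 (adjusted p = 0.212) and 0.22 (adjusted p = 0.392). ATF2, which is regulated mainly by phosphorylation, had the 1 value below 0 in the list (-0.12, adjusted p = 0.712).

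In the other lines the list median was lower. No feature was called for a difference between the responses of MDA-MB-231 and MDA-MB-468. The response of SKBR3, which was given another ASO, was not tested against theirs. The list median was 0.081 in MDA-MB-468, with 9 of 10 above 0 (49.1% of all tested features). The 1 of 10 with all treated arrays above all controls, near the 8.41% of all tested features, was FOSB at 0.23 ± 0.112 (limma adjusted p = 0.492). MAFF had 0.33 (adjusted p = 0.44) there. FOS read 6.08, 6.11 and 6.19 in the MDA-MB-468 controls and 6.6, 6.14 and 6.24 after treatment, with replicate 1 again the highest. Without that replicate the list median was 0.02. In SKBR3 the median was 0.057, with JDP2, a repressor of AP-1, at 0.22 (adjusted p = 0.579) and ATF2 at -0.11 (adjusted p = 0.715). FOS had -0.13 (adjusted p = 0.775) there.

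Other immediate early genes had a median difference of 0.27 in MDA-MB-231, with 13 of 14 tested genes above 0 (53.0% of all tested features), 8 with all treated arrays above all controls (9.28%) and 0 passing limma. The leading ones by p were IER2, a short-lived nuclear protein gene (0.45 ± 0.126, adjusted p = 0.176), and the small GTPase gene RHOB (0.29 ± 0.0811, adjusted p = 0.178). The Krüppel-like factor genes KLF4 (0.42) and KLF6 (0.34) and the pseudokinase gene TRIB1 (0.50) had adjusted p of 0.232, 0.264 and 0.191. The list median was 0.13 in SKBR3 with 11 of 14 above 0 (54.0% of all tested features), led by KLF10 (0.41 ± 0.129, adjusted p = 0.405). Without SKBR3 treated replicate 1 that median was 0.049. In MDA-MB-468 the median was 0.085, or -0.039 without treated replicate 1, and the smallest p were those of the survival gene MCL1 (-0.17 ± 0.0573, adjusted p = 0.319) and IER5 (-0.34 ± 0.133, adjusted p = 0.385).

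The relatives and corepressors of EGR1 had values on both sides of 0 in each line. Of 4 tested genes, 0 passed limma in any line, and the medians were 0.018 in MDA-MB-231, -0.051 in MDA-MB-468 and 0.06 in SKBR3. In MDA-MB-231 EGR3 had 0.12 (adjusted p = 0.859), EGR4 had -0.17 (0.719), and the corepressor gene NAB2 had 0.14 (0.808). In SKBR3 EGR3 had 0.21 (adjusted p = 0.621) and EGR4 -0.25 (0.525), and in MDA-MB-468 NAB1 had -0.15 (0.641). The 6 tested EGR1 targets had medians of -0.018 in SKBR3, 0.039 in MDA-MB-231 and 0.12 in MDA-MB-468. Without treated replicate 1 these were 0.068, -0.00052 and 0.057, so the first and second changed sign. Among them the growth factor gene PDGFA read 7.74, 7.66 and 7.54 in the MDA-MB-231 controls and 7.88, 8.02 and 8.17 after treatment, 0.38 ± 0.108 (adjusted p = 0.189). The adhesion gene ICAM1 had 0.43 ± 0.164 (adjusted p = 0.365) there. FN1, which encodes fibronectin, had the value farthest from 0 there, -0.58 ± 0.307 (adjusted p = 0.608), and the angiogenic factor gene VEGFA had -0.14 (adjusted p = 0.832). All treated arrays lay below all controls for FN1 and VEGFA in MDA-MB-231. Of all tested features there, 17.2% had groups apart in either direction. In MDA-MB-468 FN1 had 0.63 ± 0.307 (adjusted p = 0.494) with overlapping groups.

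MYC's own network of MAX partners lay near 0 in each line, with 5 of 10 tested genes above 0 in SKBR3, in MDA-MB-231 and in MDA-MB-468 and 0 passing limma. Medians were -0.0017, 0.017 and -0.022 in that order. MAX itself had 0.15 ± 0.0764 in MDA-MB-231 (adjusted p = 0.577). MXD1, which competes with MYC for MAX, had -0.20 ± 0.0897 there (adjusted p = 0.481), and the related MNT had 0.23 ± 0.0931 in MDA-MB-468 (adjusted p = 0.393).

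Genes activated by MYC were above 0 in SKBR3 for 19 of 19 tested, where 54.0% of all tested features were above 0. The median was 0.19 log2 against 0.014 for all tested features, 6 had all treated arrays above all controls (7.28% of tested features), and 0 passed limma. MYBBP1A, a nucleolar protein gene, read 7.11, 7.15 and 7.14 in the controls and 7.69, 7.34 and 7.42 after treatment, 0.35 ± 0.105 (adjusted p = 0.384). FBL, the methyltransferase of ribosomal RNA, read 9.85, 9.67 and 9.77 against 10.21, 9.87 and 9.95, 0.25 ± 0.0854 (adjusted p = 0.429). Replicate 1 was the highest treated array in both, as it was for MYC, and without it the list median was 0.086.

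The same MYC targets had medians of 0.065 in MDA-MB-231 (17 of 19 above 0, against 53.0% of all tested features) and 0.03 in MDA-MB-468 (12 of 19, against 49.1%), with 0 passing limma. Without treated replicate 1 the MDA-MB-468 median was -0.039. ODC1, the rate-limiting enzyme of polyamine synthesis, was the leading gene in both. It read 10.86, 11 and 10.89 in the MDA-MB-231 controls and 11.22, 11.47 and 11.58 after treatment, 0.50 ± 0.117 (adjusted p = 0.0988). In MDA-MB-468 it read 10.32, 10.38 and 10.12 against 10.92, 10.73 and 10.47, 0.44 ± 0.117 (adjusted p = 0.241). ODC1 therefore had groups apart in MDA-MB-468, where MYC itself overlapped. Of all tested features there, 8.41% had all treated arrays above all controls. The 3 tested of 7 genes repressed by MYC had medians of -0.086 in SKBR3, -0.13 in MDA-MB-231 and -0.013 in MDA-MB-468. In each line 1 of the 3, NDRG1, was above 0 (0.18, 0.034 and 0.29 in that order). With 1 array left out, the median ran from -0.17 to 0.16 in SKBR3 and from -0.074 to 0.06 in MDA-MB-468. In MDA-MB-231 it stayed below 0, from -0.17 to -0.033.

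Upstream kinases and the SRF, ETS and CREB factors had medians of -0.013, -0.052 and -0.032 in SKBR3, MDA-MB-231 and MDA-MB-468, with 0 of 10 passing limma. SRF, which binds the serum response element, had 0.17 ± 0.0763 in MDA-MB-231 (adjusted p = 0.483) and 0.19 ± 0.0763 in MDA-MB-468 (adjusted p = 0.404), where its groups overlapped. The JNK kinase gene MAPK9 had -0.13 in MDA-MB-231 (adjusted p = 0.578) and -0.14 in MDA-MB-468 (adjusted p = 0.458), with all treated arrays below all controls in each. Groups apart in either direction were found for 17.2% of all tested features in MDA-MB-231 and 16.9% in MDA-MB-468. The SRF coactivator gene MRTFA had 0.16 ± 0.0817 in MDA-MB-231 (adjusted p = 0.576). The related MRTFB read 9.42, 9.38 and 9.29 in the SKBR3 controls and 8.06, 9.18 and 8.85 after treatment, -0.66 ± 0.188 (adjusted p = 0.382). Its lowest array was treated replicate 1, the array with the highest FOSL1 and MYC.

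AP-1 targets had 7 tested genes of 20, and medians of 0.17 in SKBR3, 0.12 in MDA-MB-231 and 0.10 in MDA-MB-468, with 0 passing limma. Without treated replicate 1 the medians were 0.064 in SKBR3 and -0.087 in MDA-MB-468. The cytokine gene LIF had 0.27 ± 0.157 in SKBR3 (adjusted p = 0.627), and the keratinocyte gene IVL had 0.39 ± 0.184 in MDA-MB-231 (adjusted p = 0.526). The cyclin gene CCND1 had -0.23 ± 0.109 in MDA-MB-468 (adjusted p = 0.488). Of the decay and turnover factors 2 of 10 were tested. KHSRP, which binds AU-rich RNA, had 0.14, 0.09 and 0.0065 in SKBR3, MDA-MB-231 and MDA-MB-468, and the deubiquitinase gene USP28 had 0.095, -0.12 and 0.013.

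**Figure D4:**
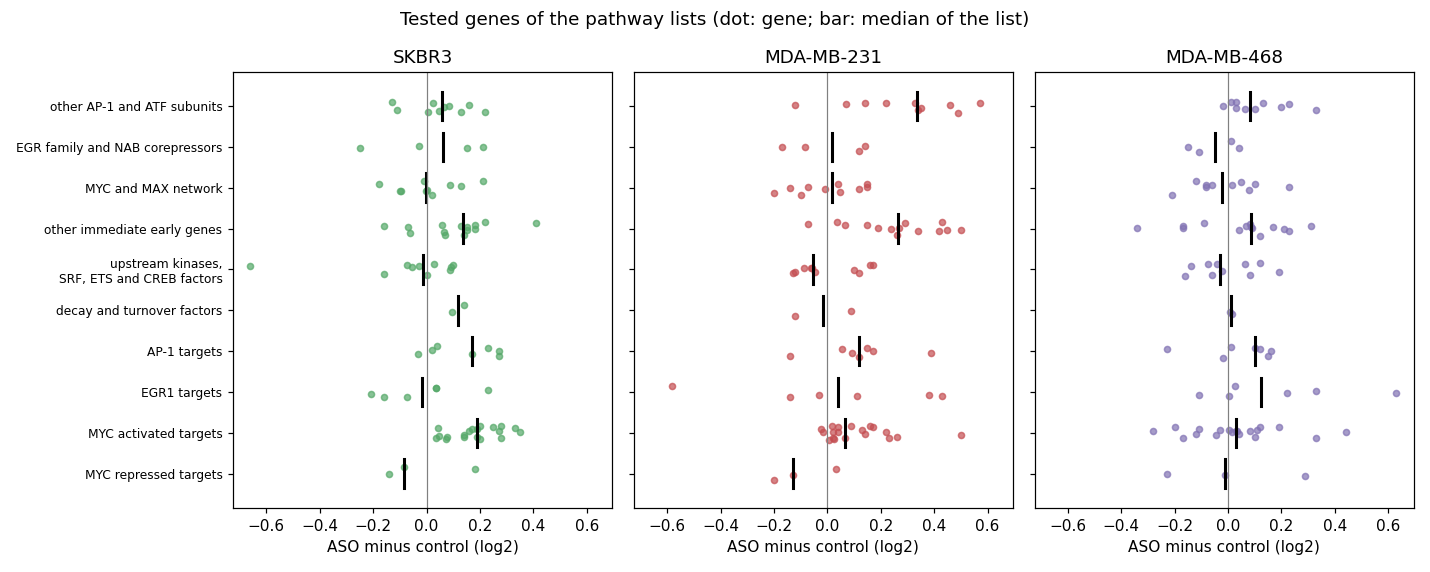
Difference of means, ASO minus control, in log2 (horizontal axes) for each tested gene (dot) of 10 pathway lists, with the list median as a bar, 1 panel per labelled line. The AP-1 and ATF subunits have a median of 0.33 in MDA-MB-231 and the MYC activated targets of 0.19 in SKBR3, and 0 of the 85 genes passed the test in any panel.

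The genes whose array pattern was most like each member were found by Pearson correlation over the 18 arrays after each line's mean was subtracted. For EGR1 they were the microRNA gene MIR21 (r = 0.911), MIR622 (0.877), JUN (0.87), the inhibitory SMAD gene SMAD6 (0.867) and the ETS repressor gene ETV3 (0.865). For JUN they were the protease inhibitor gene TFPI2 (0.929), CRISPLD2 (0.915), PDLIM1 (0.91), CAVIN1 (0.898) and SMAD6 (0.892). These genes were picked for a pattern that includes the treated arrays, so their differences are given without a test. SMAD6 appears in both sets, with differences of 0.45 log2 in MDA-MB-231, 0.32 in MDA-MB-468 and 0.10 in SKBR3. TFPI2 had the largest differences among them, 2.78 in MDA-MB-231 and 1.44 in MDA-MB-468, against 0.30 in SKBR3.

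FOSL1 and MYC had other nearest genes. For FOSL1 they were the ribosome assembly gene NOP14 (r = 0.936), FBL (0.928), YBX3P1 (0.927), MCMBP (0.913) and TXNL4B (0.909). For MYC they were NOLC1, a nucleolar protein gene (0.959), SDE2 (0.941), FTSJ3 (0.933), MYO10 (0.933) and CYB5D1 (0.931). NOLC1 and FBL are also on the list of MYC activated targets. NOLC1 read 8.56, 8.5 and 8.48 in the SKBR3 controls and 9.08, 8.54 and 8.76 after treatment, with the same highest array as MYC. For the mean of the 4 genes, the nearest were ANXA1 (0.932), TUFT1 (0.93), TNC (0.926), L1CAM (0.926) and SPRY2 (0.92). ANXA1, which encodes annexin A1, had differences of 0.57 in SKBR3, 0.73 in MDA-MB-231 and 0.81 in MDA-MB-468.

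The level of the 4 genes without an anti-lncRNA ASO differed between the labelled lines. The genes were chosen by differences from these same control arrays, so the tests below are not independent of that choice. It was compared in the 9 control arrays after quantile normalization over all 18 arrays, which are the same control arrays as above. In this comparison limma called 31.5% of features between SKBR3 and MDA-MB-231, 35.5% between SKBR3 and MDA-MB-468 and 26.1% between MDA-MB-231 and MDA-MB-468. Each line's arrays appear to have been scaled as a set of their own, so line and array set cannot be told apart.

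FOSL1 was highest in the MDA-MB-231 controls. Their quantile-normalized values ran from 6.9 to 7.07 (median 7.01), against 5.95 to 6.31 (median 6.1) in SKBR3 and 5.68 to 5.76 (median 5.71) in MDA-MB-468. MDA-MB-231 was above MDA-MB-468 by 1.27 ± 0.257 log2 (n = 3 per group, limma adjusted p = 0.00178), and SKBR3 was below MDA-MB-231 with -0.87 ± 0.257 (adjusted p = 0.0165). SKBR3 and MDA-MB-468 did not differ beyond the threshold (0.40 ± 0.257, adjusted p = 0.24). Among all features, FOSL1 stood at a mean percentile of 78.5 in MDA-MB-231, 68.1 in SKBR3 and 61.8 in MDA-MB-468.

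JUN was lowest in the MDA-MB-231 controls. It ran from 7.8 to 7.91 there, from 8.45 to 8.77 in MDA-MB-468 and from 8.5 to 8.75 in SKBR3. SKBR3 was above MDA-MB-231 by 0.81 ± 0.116 (limma adjusted p = 7.66e-05), and MDA-MB-231 was below MDA-MB-468 with -0.76 ± 0.116 (adjusted p = 0.000192). SKBR3 and MDA-MB-468 overlapped for JUN (0.053 ± 0.116, adjusted p = 0.757).

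The order of EGR1 depended on its feature. The brighter feature ran from 6.13 to 6.36 in MDA-MB-231, from 6.48 to 6.75 in MDA-MB-468 and from 6.83 to 6.92 in SKBR3. Those ranges did not touch. SKBR3 was above MDA-MB-231 by 0.67 ± 0.13 (limma adjusted p = 0.00105), and MDA-MB-231 was below MDA-MB-468 with -0.40 ± 0.13 (adjusted p = 0.0329). Between SKBR3 and MDA-MB-468 the difference was 0.27 ± 0.13 (adjusted p = 0.115), and when array medians were subtracted instead it was 0.36 (adjusted p = 0.0287). The second feature ran from 5.18 to 5.43 in SKBR3, from 4.96 to 5.34 in MDA-MB-231 and from 4.92 to 5.11 in MDA-MB-468, with overlap between neighbours. For it, MDA-MB-231 was not below MDA-MB-468 (0.13 ± 0.129, limma adjusted p = 0.484), SKBR3 minus MDA-MB-231 was 0.17 ± 0.129 (adjusted p = 0.33) and SKBR3 minus MDA-MB-468 was 0.31 ± 0.129 (adjusted p = 0.0758).

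MYC was lowest in the SKBR3 controls, at 6.93 to 7.05, against 7.44 to 7.61 in MDA-MB-231 and 7.54 to 7.67 in MDA-MB-468. SKBR3 differed by -0.51 ± 0.166 from MDA-MB-231 (limma adjusted p = 0.0277) and by -0.61 ± 0.166 from MDA-MB-468 (adjusted p = 0.00888). The triple-negative lines overlapped in MYC (-0.10 ± 0.166, adjusted p = 0.689). FOSL1 and MYC therefore had different orders across the labelled lines.

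**Figure D5:**
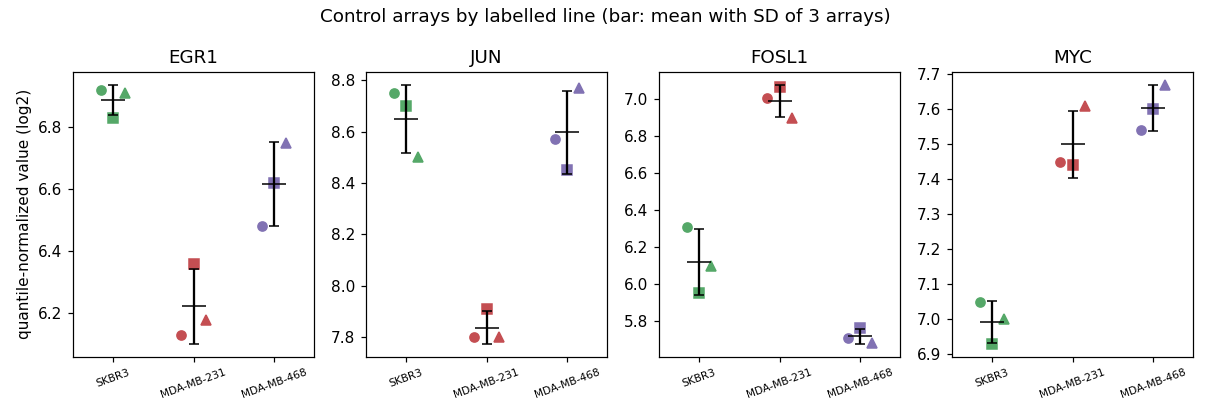
Quantile-normalized log2 value (vertical axes, 1 panel per gene) in the 3 control arrays of each labelled line, with the mean and SD of 3 arrays. FOSL1 is highest in MDA-MB-231 (6.9 to 7.07), JUN and the brighter EGR1 feature are lowest there (the second EGR1 feature, not plotted, is not), and MYC is lowest in SKBR3 (6.93 to 7.05).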

How the data were processed

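Per the submitters' processing notes, the authors used Transcriptome Analysis Console for the 18 scans. The version, the summarization and the build are not given in the sources used here. Because they lie between 0.41 and 13.84, the deposited values were taken to be log2 expression. Of 53617 features, 16098 have 1 gene symbol in GEO's platform annotation, 0 several and 37519 none, which are unnamed here, and all symbols matched RefSeq. Depth does not apply, and the number of arrays limits the precision.

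Features were tested (29855) if in any of the 6 groups their mean was above the median over features. A group-means model over all 18 arrays was fitted with limma 3.58.1 in R 4.3.3, with an intensity trend, 12 residual and 4.33 prior degrees of freedom, two-sided tests and Benjamini-Hochberg adjustment over all tested features at 0.05. Standard errors come from that fit, also where the gene's test is not given. The procedure was tested on simulated data. Levels between lines used quantile normalization over all arrays.

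The members and lists were chosen with earlier results of these data known. From each list, genes called in any comparison and otherwise the 2 with the smallest p per comparison follow a fixed rule, as do the 5 genes most like each member by Pearson correlation. FOS, JUNB, JUND, MAFG, MAX, VEGFA, KLF4, KLF6, TRIB1 and JUN-DT fall outside this rule and were chosen after their values were seen, as were the comparisons in which rule-named genes such as EGR3 are shown beyond those that named them. Alternatives covered filters, normalization, variance model, the arrays in the fit, a replicate block and omission of each array.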

Additional observations from a re-analysis of the deposited data

Results flagged for a closer look

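KLF2, a Krüppel-like immediate early gene on the lists, had differences of opposite sign in the lines given the same ASO. Its treated arrays lay at 7.02 to 7.09 above controls at 6.8 to 6.84 in MDA-MB-231, and at 6.43 to 6.52 below controls at 6.58 to 6.75 in MDA-MB-468. The MDA-MB-231 response was 0.40 ± 0.145 log2 above that of MDA-MB-468, which limma did not call (adjusted p = 0.998). It was singled out because all treated arrays of 1 line lay above their controls and all of the other line below. Of all tested features, 9.28% had all treated arrays above all controls in MDA-MB-231. In MDA-MB-468, 16.9% of all tested features had groups apart in either direction, and 8.41% had all treated arrays above all controls. The share with groups apart in opposite directions in these lines was not counted. An unadjusted limma p under 0.05 for the difference of responses was found for 4.16% of all tested features. The groups of 3 are too small for a test of outlying arrays.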

How the results depend on the processing

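Of 111 member differences recomputed under other filters, normalizations, variance models, arrays in the fit, the replicate block or the other EGR1 feature, 109 moved by less than the spread between replicates, taken as the pooled SD of that gene's arrays in that line. Filters, variance models, the arrays in the fit and the replicate block cannot change a difference of means in this design. Only the normalizations and the other EGR1 feature could move it, so the count is no measure of stability under the rest. The 2 that moved were those of the other EGR1 feature, 0.25 in MDA-MB-231 and 0.14 in MDA-MB-468. Of 72 omissions of 1 array, 10 moved a difference by over 1.5 times or reversed it, among them FOSL1 in SKBR3 (0.31 to 0.96) and MYC in SKBR3 (0.22 to 0.57), and the reversed one was MYC in MDA-MB-468, with a range of -0.029 to 0.20. For the EGR1 level in control arrays, the other feature, an alternative chosen after seeing the data, gave 0.13 for MDA-MB-231 minus MDA-MB-468, a reversed sign, and 0.17 for SKBR3 minus MDA-MB-231, no longer called. Counts of called features depended on the processing. In SKBR3, 0 features became 1 without the filter and 0 to 231 with 1 array left out (231 without treated replicate 2, 5 without control replicate 2). In MDA-MB-231, 51 features became 28 without the filter, 99 with a stricter filter, 26 without the intensity trend, 3 with the arrays of that line only and 0 to 532 with 1 array left out. Only the omission of treated replicate 1 raised that count, and each of the other 5 omissions gave 0. In MDA-MB-468, 2 features became 1 with the stricter filter, 0 with that line's arrays only and 0 to 12 with 1 array left out (12 without treated replicate 3). With a replicate block, the counts were 0 in MDA-MB-231 and 0 in MDA-MB-468. Replicate numbers did not pair the arrays, since same-numbered arrays had correlations of deviations from -0.124 to 0.101 and 3, 0 and 2 of 6 arrays were closest to their own number in SKBR3, MDA-MB-231 and MDA-MB-468. The causes were not tested. Counts between control arrays stayed within 1.5 times.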
